A study of Mus musculus with 8 samples.

Results

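Cornified envelope and epidermal differentiation genes were examined in 4T1 cells, a mouse mammary carcinoma line. The set comprised every gene whose symbol starts with Lce or Sprr and a digit, together with Ivl, Flg2, Cdsn, Sbsn, Krtdap, Cnfn, Tgm1, Tgm3, Sfn, Evpl and Ppl. It held 26 of the 27727 genes listed in either deposited table, and the symbols Flg, Rptn and Hrnr, which the same rule names, were not analysed here. Of the 26 genes, 19 had normalized counts, 7 had transformed values only, and 8 reached a mean of 10 normalized counts and were tested among 15746 genes.

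Conditions of wild-type 4T1 cells were compared by poly(A) RNA sequencing. Hypo cells received SKL2001 and decitabine overnight (n = 4, replicates 2 to 5), and Ctrl cells received SKL2001 alone overnight (n = 4, replicates 1 to 4). SKL2001 is an agonist of canonical Wnt signaling that stabilizes β-catenin, and decitabine is a nucleoside that traps DNA methyltransferases and so lowers DNA methylation. All 8 libraries came from SKL2001-treated cells of a single cultured line. Each difference is thus between cells with and without added decitabine on this background, and the response to SKL2001 itself is not given. DNA methylation was not measured in these libraries.

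The cornified envelope is the protein shell that replaces the plasma membrane of a keratinocyte as it dies at the skin surface. Scaffold proteins such as envoplakin and periplakin are laid down first, involucrin, small proline-rich (Sprr) and late cornified envelope (Lce) proteins are added, and transglutaminases cross-link them. Many of these proteins are encoded side by side in the epidermal differentiation complex on mouse chromosome 3. Mammary carcinoma is not a cornifying epithelium, although its cells share desmosomes, keratins and several regulators with the epidermis.

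Promoters are shown for the genes that differed most, Tgm1 and Lce1g, for Sbsn, which rose, and for Lce1h, the Lce gene next to Lce1g. Each is the RefSeq window of 250 bases before to 50 bases after a start site on GRCm38.p6, written 5′ to 3′ on the strand of the gene. Capitals mark CG dinucleotides, the usual sites of DNA methylation, and TGANTCA, where N is any base. TGANTCA is a broad form of the core motif bound by AP-1 factors. The windows are chr14:55713443-55713742 (minus strand) for Tgm1, chr7:30751221-30751520 (plus strand) for Sbsn, chr3:92752289-92752588 (minus strand) for Lce1g and chr3:92765016-92765315 (minus strand) for Lce1h.
Tgm1: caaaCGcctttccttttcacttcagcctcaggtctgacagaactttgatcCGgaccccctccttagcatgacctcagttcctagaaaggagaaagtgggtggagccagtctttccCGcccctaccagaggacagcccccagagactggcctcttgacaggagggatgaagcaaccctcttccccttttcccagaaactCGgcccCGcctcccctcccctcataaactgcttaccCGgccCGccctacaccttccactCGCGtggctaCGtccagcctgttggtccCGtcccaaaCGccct
Sbsn: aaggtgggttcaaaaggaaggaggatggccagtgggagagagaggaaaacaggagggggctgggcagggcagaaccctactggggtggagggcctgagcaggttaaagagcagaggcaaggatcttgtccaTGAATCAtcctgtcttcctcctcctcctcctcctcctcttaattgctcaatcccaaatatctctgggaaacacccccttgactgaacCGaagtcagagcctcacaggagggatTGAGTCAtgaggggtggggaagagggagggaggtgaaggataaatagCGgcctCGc
Lce1g: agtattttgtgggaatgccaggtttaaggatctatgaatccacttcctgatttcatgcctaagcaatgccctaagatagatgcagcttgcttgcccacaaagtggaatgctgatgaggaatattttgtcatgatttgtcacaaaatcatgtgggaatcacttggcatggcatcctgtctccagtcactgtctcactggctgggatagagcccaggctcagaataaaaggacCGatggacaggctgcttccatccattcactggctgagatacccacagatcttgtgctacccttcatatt
Lce1h: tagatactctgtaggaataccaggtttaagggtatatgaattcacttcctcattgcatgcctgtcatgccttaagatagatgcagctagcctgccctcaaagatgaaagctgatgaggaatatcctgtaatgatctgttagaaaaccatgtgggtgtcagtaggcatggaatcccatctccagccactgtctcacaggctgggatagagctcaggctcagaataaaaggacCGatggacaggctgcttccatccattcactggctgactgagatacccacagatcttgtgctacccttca

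The windows differed in their CG content. The Tgm1 window held 12 CG and a second annotated start of the gene had 9, whereas Sbsn held 3 and Lce1g and Lce1h held 1 each. Both Tgm1 windows lie inside the annotated span of the gene (chr14:55700009-55713926), and its outermost start was not examined. TGANTCA, searched on both strands, occurred in only 1 of the 4 printed windows, that of Sbsn. It lay at 2 places there, starting 119 and 6 bases before the start site (-119 and -6). A RefSeq promoter matched 22 of the 26 genes, in 24 windows, and Lce1f, Evpl, Ppl and Sprr2j-ps had none. Of the 24 windows, 15 held at most 3 CG, a content found in 31.4% of all 32851 promoter windows, and 7 held TGANTCA, found in 7.81% of all windows. The median was 2.5 CG in the 24 windows and 7 in all windows. Aligned end to end with gaps allowed, the Lce1g and Lce1h windows had 259 identical bases (86.3% of 300), with a longest shared run of 56 bases. By the same measure Lce1c reached 75.3%, Lce1b 68.3% and Lce1a1 66.0% with Lce1g. The Lce3c window reached 55.3%, and the printed Sbsn and Tgm1 windows reached 48.7% and 47.3%. These matches describe letters in a window and are not evidence of binding or methylation.

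Depth ranged from 27486245 reads assigned to genes (Hypo replicate 2) to 39388394 (Ctrl replicate 4), and 1 read was worth 0.855 to 1.16 normalized counts. Levels are normalized counts, that is reads divided by a size factor of the library. Differences are Hypo minus Ctrl on the deposited transformed scale, which is log2-like for abundant genes and compressed for rare ones (a normalized count of 0 has the value 7.08, of 10 the value 7.47 and of 100 the value 8.29). Adjusted p-values come from limma over all 15746 genes, and a gene was called to have risen or fallen at an adjusted p below 0.05. Ctrl replicate 3 stood apart from the other Ctrl libraries in 887 tested genes (5.63%), against 96 to 316 genes for each other library. For tested genes of the set, results that rest on it are therefore given with and without it. Levels of genes outside the set are given with all libraries only. The epithelial markers Epcam, Cdh1, Krt8, Krt18, Krt7 and Krt19 summed to 114258 to 130462 normalized counts in Hypo and 124380 to 141848 in Ctrl. Of these 6, Epcam rose (1.23-fold higher in Hypo, limma adjusted p = 3.6e-04) and Krt7 fell (1.46-fold lower in Hypo, limma adjusted p = 3.8e-04). The other 4 were not called, where 14.1% of all tested genes rose and 8.75% fell.

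Of the 8 tested genes, 2 rose in Hypo (Tgm1 and Sbsn), 3 fell (Lce1g, Lce1f and Ppl) and 3 were not called (Cdsn, Evpl and Sfn). Of all tested genes, 22.8% were called, 14.1% as higher and 8.75% as lower in Hypo. The 5 calls made 62.5% of the 8 genes, and all 8 had a mean of at least 10 in both groups. The median difference was -0.02 over the 8 genes and 0.0035 over all tested genes, so calls in both directions stood beside a median near 0. Hypo lay wholly above Ctrl in 1 of the 8 genes and wholly below in 2, against 15.4% and 10.3% of all tested genes (25.7% either way). By edgeR on recovered reads of the same genes, 2 of the 8 rose and 3 fell, where 23.4% of all tested genes were called, 13.8% as higher and 9.63% as lower.

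**Figure D1:**
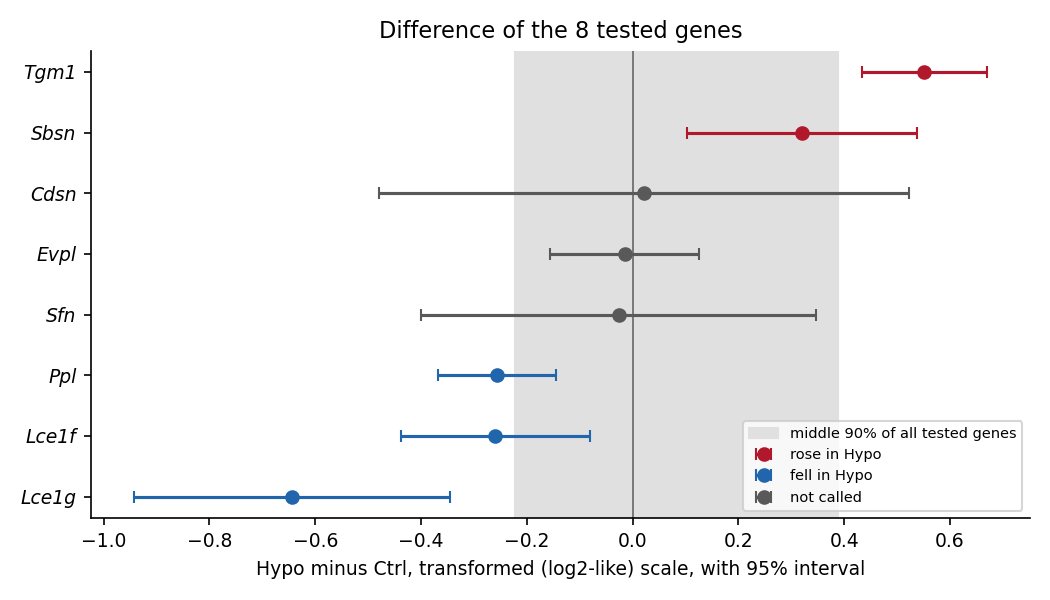
Hypo minus Ctrl difference on the transformed scale (horizontal axis, log2-like units) of the 8 tested genes, with 95% intervals; the grey band spans the middle 90% of all 15746 tested genes. Tgm1 (0.55) lies above the band and Lce1g (-0.64), Lce1f (-0.26) and Ppl (-0.26) lie below it, and the intervals of Cdsn, Evpl and Sfn include 0.

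The cross-linking enzymes were represented by Tgm1, the membrane-anchored transglutaminase of keratinocytes, and Tgm3, a transglutaminase of late differentiation. Tgm1 (chr14:55700009-55713926, GRCm38, minus strand) had 70.6, 58.5, 77.1 and 50.2 normalized counts in Hypo replicates 2 to 5, against 7.17, 13.04, 13.6 and 12.8 in Ctrl replicates 1 to 4. Every Hypo library was above every Ctrl library. The means were 64.1 ± 12.1 in Hypo and 11.7 ± 3.01 in Ctrl (SD, n = 4 each), a 5.50-fold higher level in Hypo, with a difference of 0.55 (SE 0.05, 95% interval 0.43 to 0.67, limma adjusted p = 1.8e-05). An antisense gene within the locus, Gm49067, averaged only 1.18 normalized counts in Hypo and 1.61 in Ctrl. Tgm3 collected 20 reads over the Hypo libraries and 18 over the Ctrl libraries, too few to be tested.

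Genes near Tgm1 were examined by a rule added after the values were seen, taking every tested gene within 100 kb. Of 14 such genes 4 rose and 0 fell in limma at adjusted p below 0.05, beside 14.1% and 8.75% of all tested genes. Ripk3, a kinase of necroptosis, was among them, at 81.2 normalized counts in Hypo and 1.09 in Ctrl (difference 0.996, limma adjusted p = 3.9e-07), and it passed the minimum through its Hypo level. The others were Irf9 (0.42, adjusted p = 0.0052), Rabggta (0.34, adjusted p = 0.0024) and Tinf2 (0.21, adjusted p = 0.0055).

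The Lce genes encode small proteins added late to the envelope. Lce1g (chr3:92750148-92752338, minus strand) had 44.0, 81.2, 63.4 and 73.8 normalized counts in Hypo replicates 2 to 5 and 216, 224, 86.0 and 272 in Ctrl replicates 1 to 4. The groups did not overlap, and Ctrl replicate 3 was the Ctrl library nearest to Hypo. The mean was 3.04-fold lower in Hypo (65.6 ± 16.2) than in Ctrl (199.6 ± 79.6; SD, n = 4 each), with a difference of -0.64 (SE 0.14, 95% interval -0.94 to -0.35, limma adjusted p = 0.0051). Without Ctrl replicate 3 the Ctrl mean was 237 ± 30.1 (n = 3), and the level was 3.62-fold lower in Hypo (limma adjusted p = 4.5e-06; 9.6e-07 to 0.044 over all alternatives).

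Lce1f (chr3:92718685-92720350, minus strand) had 12.7, 16.6, 11.9 and 25.6 normalized counts in Hypo and 48.2, 51.3, 15.4 and 45.3 in Ctrl. Ctrl replicate 3 lay within the Hypo range, and the other 3 Ctrl libraries lay above it. The mean was 2.40-fold lower in Hypo, at 16.7 ± 6.25 against 40.0 ± 16.6 in Ctrl (SD, n = 4 each), with a difference of -0.26 (SE 0.08, 95% interval -0.44 to -0.08, limma adjusted p = 0.040). Leaving out Hypo replicate 2, 3 or 4 or Ctrl replicate 1, 2 or 4 ended the call (limma adjusted p 0.085 to 0.12). Without Ctrl replicate 3 the Ctrl mean was 48.2 ± 2.99 (n = 3), and the level was 2.89-fold lower in Hypo (limma adjusted p = 5.8e-04; 2.9e-04 to 0.12 over all alternatives).

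Lce1h (chr3:92763215-92765065, minus strand) fell short of the minimum for testing with a mean of 9.43. It had 1.16, 2.62, 1.84 and 2.95 normalized counts in Hypo and 12.3, 17.4, 8.15 and 29.1 in Ctrl, from 9 reads in Hypo and 75 in Ctrl. All Hypo libraries were below all Ctrl libraries, as in 17.1% of the genes under the minimum, in either direction. The mean was 7.81-fold lower in Hypo, and without a filter on low counts the gene was called as lower (limma adjusted p = 0.0052 over 27336 genes, edgeR adjusted p = 8.6e-04). Lce1f, Lce1g and Lce1h lie within 46.4 kb, with 1 other annotated protein-coding gene between them, and share few sequences of 100 bases with any other gene (0.795%, 1.69% and 1.32% of such windows), so few reads of this length would be ambiguous. Of the tested genes within 100 kb, Gm4202 was not called (difference 0.0082, limma adjusted p = 0.95), at 84.5 ± 23.7 normalized counts in Hypo and 82.2 ± 10.1 in Ctrl.

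The remaining Lce genes were rare. Lce1c had 10 reads in Hypo and 3 in Ctrl, Lce1b had 5 in Hypo and 17 in Ctrl, and Lce1m had 9 in Hypo and 7 in Ctrl. Lce1a1, Lce3a, Lce3c and Lce3f were listed with transformed values only. Over the 7 genes of the set so listed these ran between 7.08 and 7.31, where 7.08 is the value of a count of 0. The 17 genes of the set on chromosome 3 span 936 kb, in which 46 protein-coding genes are annotated, 15 had normalized counts and 3 were tested.

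**Figure D2:**
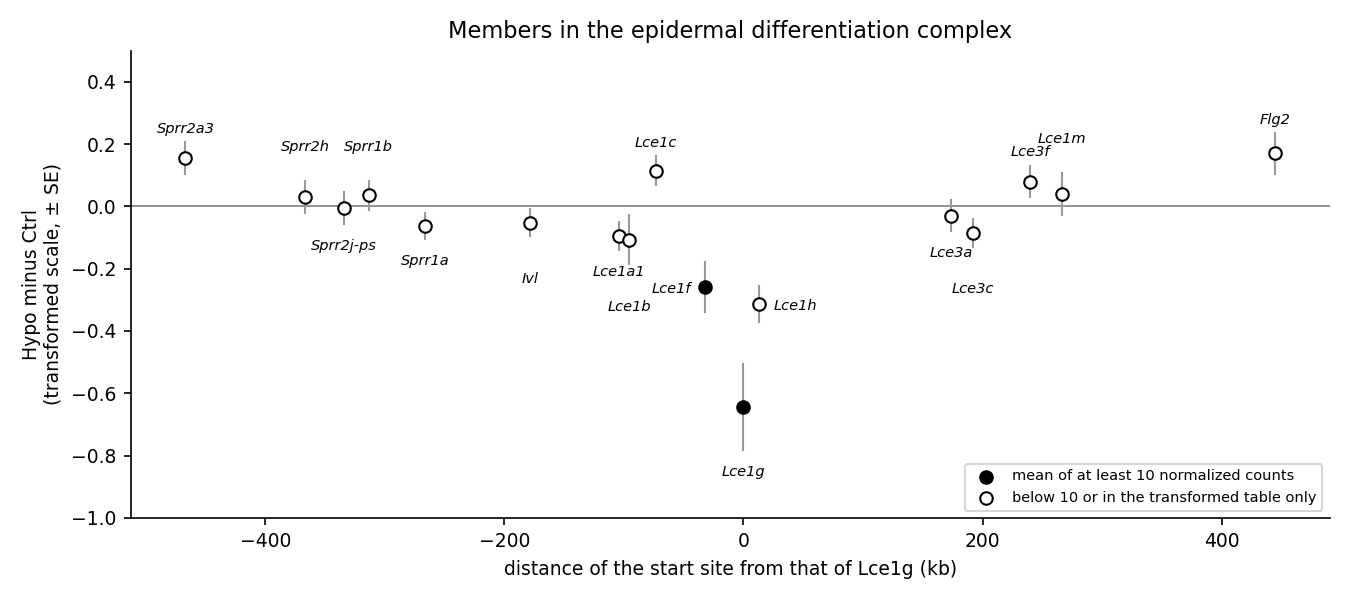
Hypo minus Ctrl difference on the transformed scale with its SE (vertical axis, log2-like units) for the genes of the set on chromosome 3, against the distance of their start site from that of Lce1g (horizontal axis, kb). Lce1f, Lce1g and Lce1h lie next to each other below 0. All points are from the fit without a filter. Open points stand for genes with a mean under 10 normalized counts or with transformed values only.

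The Sprr proteins, involucrin (Ivl) and filaggrin-2 (Flg2) make up the cross-bridges, the early scaffold and the filament-associated part of the envelope. None of them reached the minimum for testing. Sprr2a3 had 1.16, 10.5, 3.67 and 6.89 normalized counts in Hypo and 1.02, 0.869, 0.906 and 0.855 in Ctrl, or 24 reads in Hypo and 4 in Ctrl. Hypo replicate 2 and each Ctrl library held 1 read, so these 5 libraries are tied in reads and differ by their size factors alone. Without a filter it was called by edgeR (adjusted p = 0.024) and not by limma (adjusted p = 0.074). Its level is uncertain, since 36.2% of its windows of 100 bases also occur in another gene. Flg2 had 16 reads in Hypo and 2 in Ctrl.

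Ivl had 13 reads in Hypo and 22 in Ctrl, Sprr1a had 20 in Hypo and 31 in Ctrl, and Sprr1b had 14 in Hypo and 10 in Ctrl. Sprr2h and Sprr2j-ps had transformed values only. Among the 11 genes of the set with normalized counts below the minimum mean, library values ran from 0 to 29.1, and without Lce1h none exceeded 10.8. At this depth a difference in these genes was mostly not detectable. Over the whole set without a filter, limma called 1 of 26 genes as higher (Tgm1) and 3 as lower (Lce1g, Lce1h and Ppl), where 16.5% of all 27336 genes were called, 12.0% as higher and 4.55% as lower. By edgeR on recovered reads, also without a filter, 3 of 19 rose (Tgm1, Sbsn and Sprr2a3) and 4 fell (Lce1g, Lce1f, Lce1h and Ppl), where 20.6% of all genes were called, 13.1% as higher and 7.55% as lower.

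Proteins of the cell surface and those secreted during differentiation were Sbsn, Cdsn, Cnfn and Krtdap. Sbsn, suprabasin (chr7:30751471-30756134, plus strand), had 165, 188, 265 and 181 normalized counts in Hypo and 82.0, 109.5, 167 and 147 in Ctrl. The groups overlapped slightly, since the lowest Hypo library lay just under the highest Ctrl library, Ctrl replicate 3. Without Ctrl replicate 3 the groups did not overlap and the gene was still called in limma. The Ctrl mean was then 113 ± 32.7 (n = 3), and the level was 1.77-fold higher in Hypo. With all libraries the mean was 1.58-fold higher in Hypo, at 199.9 ± 44.6 against 126 ± 37.9 in Ctrl (SD, n = 4 each). The difference was 0.32 (SE 0.10, 95% interval 0.10 to 0.54, limma adjusted p = 0.036). Leaving out Hypo replicate 3 or 4 or Ctrl replicate 1 or 2 ended the call (limma adjusted p 0.071 to 0.11; 0.0035 to 0.16 over all alternatives). The overlapping gene Tmem147os did not pass (0.02, limma adjusted p = 0.89).

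Dmkn, dermokine, lies next to Sbsn and is likewise secreted by differentiating keratinocytes. It had 63.6, 52.4, 56.9 and 69.8 normalized counts in Hypo and 10.2, 22.6, 9.96 and 15.4 in Ctrl. It was 4.17-fold higher in Hypo (60.7 ± 7.64) than in Ctrl (14.5 ± 5.92; SD, n = 4 each; difference 0.48, SE 0.05, limma adjusted p = 5.8e-05), with no overlap between groups. It was the 1 gene called among 5 tested within 100 kb of Sbsn, where 14.1% of all tested genes rose and 8.75% fell.

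Cdsn, corneodesmosin (chr17:35552128-35557180), joins corneocytes to one another. It had 184, 117, 149 and 114 normalized counts in Hypo and 79.9, 82.6, 427 and 75.2 in Ctrl. A single library, Ctrl replicate 3, exceeded every Hypo library, and the other 3 Ctrl libraries were below all of them. With all libraries the means were 141 ± 32.7 in Hypo and 166 ± 174 in Ctrl (SD, n = 4 each), and the gene was not called (difference 0.02, 95% interval -0.48 to 0.52, limma adjusted p = 0.96). Without Ctrl replicate 3 the Ctrl mean was 79.2 ± 3.72 (n = 3), the level was 1.78-fold higher in Hypo, and the gene was called (difference 0.33, limma adjusted p = 0.0051; 0.0051 to 0.99 over all alternatives). Cnfn, cornifelin, had 14 reads in Hypo and 3 in Ctrl, and Krtdap had transformed values only.

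**Figure D3:**
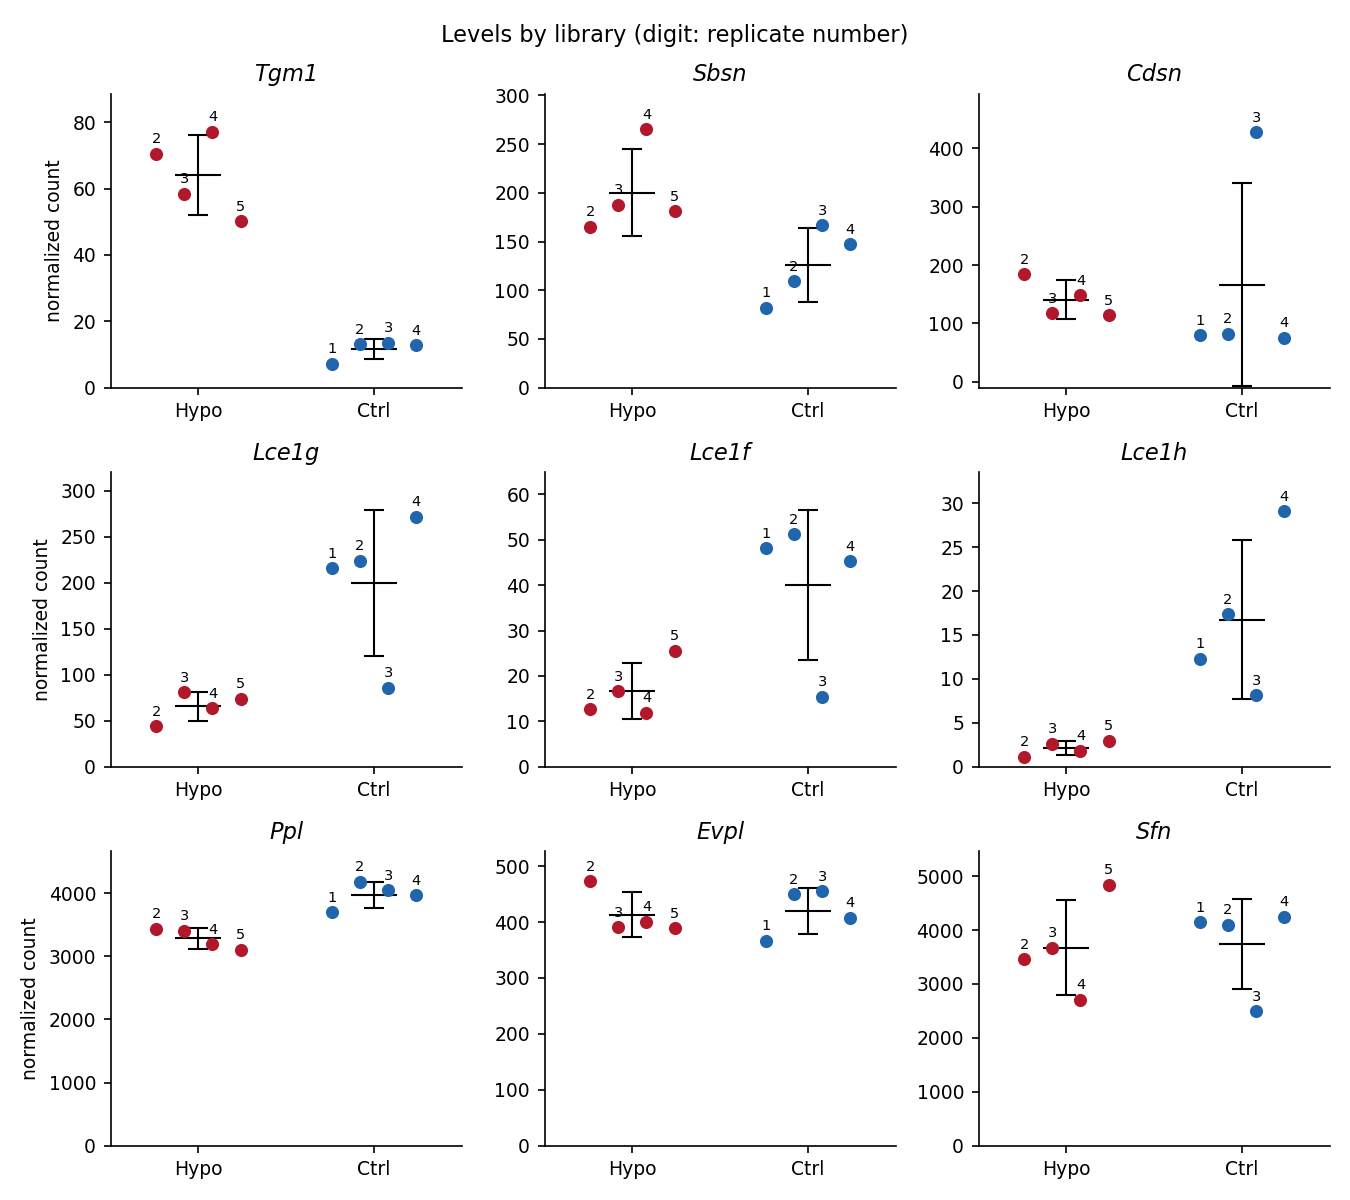
Normalized count (vertical axis) of 9 genes in each library, with Hypo left of Ctrl; digits are replicate numbers, long bars the mean and whiskers the SD (n = 4 each). Tgm1 is high in all 4 Hypo libraries, Lce1g and Lce1h are low in them, and Ctrl replicate 3 lies apart from the other Ctrl libraries in Cdsn (427) and Lce1f (15.4).

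The plakins periplakin (Ppl) and envoplakin (Evpl) link desmosomes and keratin filaments to the envelope and bind each other. Ppl (chr16:5086291-5132421) had 3433, 3402, 3192 and 3103 normalized counts in Hypo and 3697, 4181, 4042 and 3970.0 in Ctrl, so that every Hypo library lay below every Ctrl library. The change was small, 1.21-fold lower in Hypo at 3282 ± 161 against 3972 ± 203 in Ctrl (SD, n = 4 each; difference -0.26, SE 0.05, 95% interval -0.37 to -0.15, limma adjusted p = 0.0034). Within 100 kb of Ppl, 1 of 6 tested genes rose and 0 fell, beside 14.1% and 8.75% of all tested genes. Evpl (chr11:116220559-116238077) had 473, 391, 400.3 and 389.5 normalized counts in Hypo and 367, 450.2, 456 and 408 in Ctrl. The groups overlapped, with means of 414 ± 40.0 in Hypo and 420.1 ± 41.4 in Ctrl and a difference of -0.01 (95% interval -0.16 to 0.13, limma adjusted p = 0.90).

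Sfn, 14-3-3σ (chr4:133600556-133602168), is an adaptor protein of epithelial cells that is induced by p53 and in keratinocyte differentiation. It had 3459, 3676, 2710.5 and 4843 normalized counts in Hypo and 4147, 4096, 2497 and 4247 in Ctrl. The groups overlapped, at 3672 ± 884 in Hypo and 3747 ± 836 in Ctrl (SD, n = 4 each), and the difference was -0.03 (95% interval -0.40 to 0.35, limma adjusted p = 0.94). Without Ctrl replicate 3, its lowest Ctrl library, it was not called either (difference -0.20, limma adjusted p = 0.26, the lowest of 0.26 to 0.98 over all alternatives).

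Levels of different genes were compared per kb of exonic sequence. Sfn led with 2277 normalized counts per kb in Hypo and 2323 in Ctrl, followed by Ppl with 476 in Hypo and 576 in Ctrl. Lce1g reached 70.9 per kb in Hypo and 216 in Ctrl, Evpl 64.8 in Hypo and 65.8 in Ctrl, and Sbsn 55.1 in Hypo and 34.8 in Ctrl. Cdsn had 52.6 per kb in Hypo and 62.1 in Ctrl, where Ctrl replicate 3 was far above the other Ctrl libraries. Lce1f had 22.9 per kb in Hypo and 55.0 in Ctrl, and Tgm1 20.3 in Hypo and 3.69 in Ctrl. No test was made between genes.

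**Figure D4:**
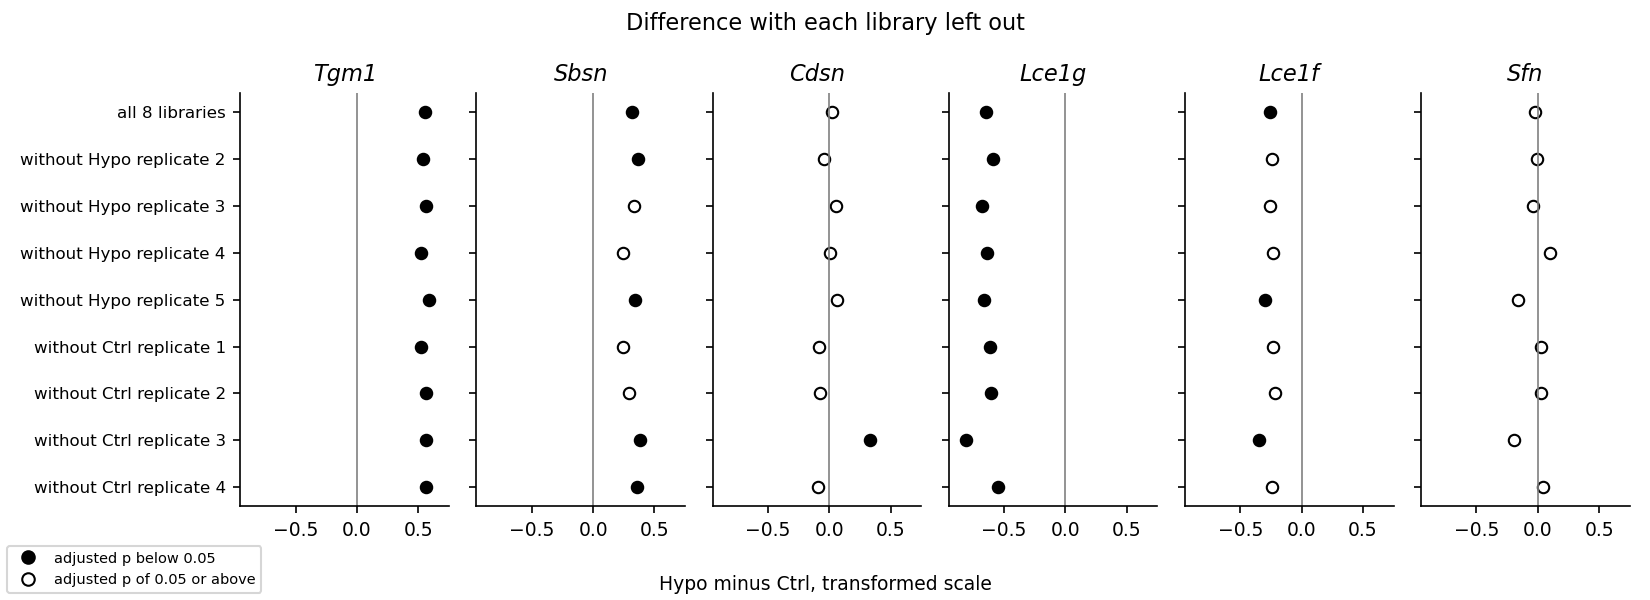
Hypo minus Ctrl difference on the transformed scale (horizontal axis, log2-like units) of 6 genes with all 8 libraries and with each library left out; filled points are adjusted p below 0.05 in limma. Tgm1 and Lce1g stay filled throughout, Lce1f and Sbsn do not, and Cdsn is filled only without Ctrl replicate 3.

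Other genes of epidermal differentiation were taken from lists of 7 kinds. Of 6 tested keratins, 2 rose and 0 fell (1 fell without Ctrl replicate 3). Of all tested genes, 14.1% rose and 8.75% fell. Krt17, a keratin of wounded and stressed epithelium, averaged 301 ± 85.9 normalized counts in Hypo and 26.2 ± 3.94 in Ctrl (difference 1.34, limma adjusted p = 3.9e-06). Krt16, its relative in activated epidermis, averaged 184 ± 14.4 in Hypo and 68.3 ± 7.90 in Ctrl (0.59, adjusted p = 6.7e-06). Krt14, the basal keratin, averaged 4404 ± 434 in Hypo and 5060.1 ± 847 in Ctrl and was not called (adjusted p = 0.26). The keratin list had a median difference of 0.015.

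Of 16 tested genes of the epidermal lipid barrier, 6 rose and 2 fell (14.1% and 8.75% of all tested genes). Abca12, the lipid transporter of lamellar granules, averaged 58.0 ± 4.20 normalized counts in Hypo and 3.93 ± 1.56 in Ctrl (SD, n = 4 each), 14.7-fold higher in Hypo. Elovl4, an elongase of very long fatty acids, was 7.40-fold higher in Hypo (109 ± 14.7 against 14.7 ± 2.59 in Ctrl), and Cers3, a ceramide synthase, 2.50-fold higher (180.4 ± 15.03 against 72.2 ± 10.2 in Ctrl). Cyp4f39 was 8.27-fold higher in Hypo (38.3 ± 8.44 against 4.63 ± 1.86 in Ctrl). Abca12 and Cyp4f39 passed the minimum through their Hypo levels, and Alox12b, which fell, through its Ctrl level. Leaving out Hypo replicate 2, 3 or 4 or Ctrl replicate 1, 2 or 4 gave 0 or 1 fall in place of 2.

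Of 35 tested regulators 16 rose and 5 fell, with a median difference of 0.11 (14.1% and 8.75% of all tested genes). Grhl2, a factor of epithelial identity, was 1.43-fold higher in Hypo (limma adjusted p = 6.2e-05), and Zfp750, a driver of terminal differentiation, averaged 18.4 ± 2.41 normalized counts in Hypo and 2.06 ± 0.853 in Ctrl (adjusted p = 6.7e-05). Trp63, the p63 gene of stratified epithelia, averaged 23.7 ± 4.27 in Hypo and 7.17 ± 3.95 in Ctrl (3.31-fold, adjusted p = 0.0025), Grhl3 447 ± 56.4 in Hypo and 323 ± 26.7 in Ctrl (adjusted p = 0.0074) and Klf4 845 ± 88.3 in Hypo and 656 ± 55.4 in Ctrl (adjusted p = 0.012). Zfp750 and Trp63 passed the minimum through their Hypo levels. Gata3 averaged 2185 ± 106 in Hypo and 3001 ± 175 in Ctrl, and Fosl2, an AP-1 subunit, 3890.1 ± 462 in Hypo and 5709 ± 314 in Ctrl, and both fell. Among the other AP-1 subunits of the list, named after their values were seen, Fos (1.99-fold, adjusted p = 0.0015), Junb (1.52-fold, adjusted p = 0.0023) and Jun (1.56-fold, adjusted p = 0.042, groups overlapping) rose, and Fosl1 and Jund were not called. Ovol1 was not called (adjusted p = 0.41).

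Of 12 tested cross-linking, desquamation and protease genes 3 rose (Klk8 1.58-fold, Asprv1 2.57-fold and Klk10 1.61-fold) and 1 fell. The gene that fell was Tgm2, at 3367 ± 194 normalized counts in Hypo and 4163 ± 355 in Ctrl. Beside this list and those that follow, 14.1% of all tested genes rose and 8.75% fell. Asprv1, a protease that processes filaggrin, averaged 71.2 ± 17.0 in Hypo and 27.7 ± 4.63 in Ctrl (limma adjusted p = 0.0011). Of 6 other envelope and fused S100 genes 0 rose and 1 fell (Anxa1, at 33718 ± 3369 in Hypo and 45765 ± 2147 in Ctrl), 3 fell without Ctrl replicate 3 and 1 rose without Hypo replicate 4. Of 9 desmosome genes 1 rose (Dsg3, 1.86-fold) and 2 fell (Pkp1 1.18-fold and Perp 1.12-fold), and 0 or 1 fell without Hypo replicate 4 or 5 or Ctrl replicate 1 or 2. Without a filter on low counts 3 desmosome genes rose in limma and 3 in edgeR, with 15 of the list found and 13 with normalized counts. Of all genes without a filter, 12.0% rose in limma and 13.1% in edgeR. With the replicate number as a block 0 desmosome genes fell. Of 8 S100 neighbours of the complex 3 rose (S100a7a 1.39-fold, S100a14 1.49-fold and S100a16 1.71-fold), and 1 fell (S100a6, limma adjusted p = 0.048). Leaving out any library but Ctrl replicate 3 ended the fall of S100a6, 2 of these genes fell without Ctrl replicate 3, and 1 rose without Hypo replicate 3 or Ctrl replicate 1. The median differences were 0.12 for lipid barrier genes, 0.10 for the protease list, -0.05 for other envelope genes, -0.03 for desmosome genes and -0.04 for S100 neighbours, beside 0.0035 for all tested genes.

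**Figure D5:**
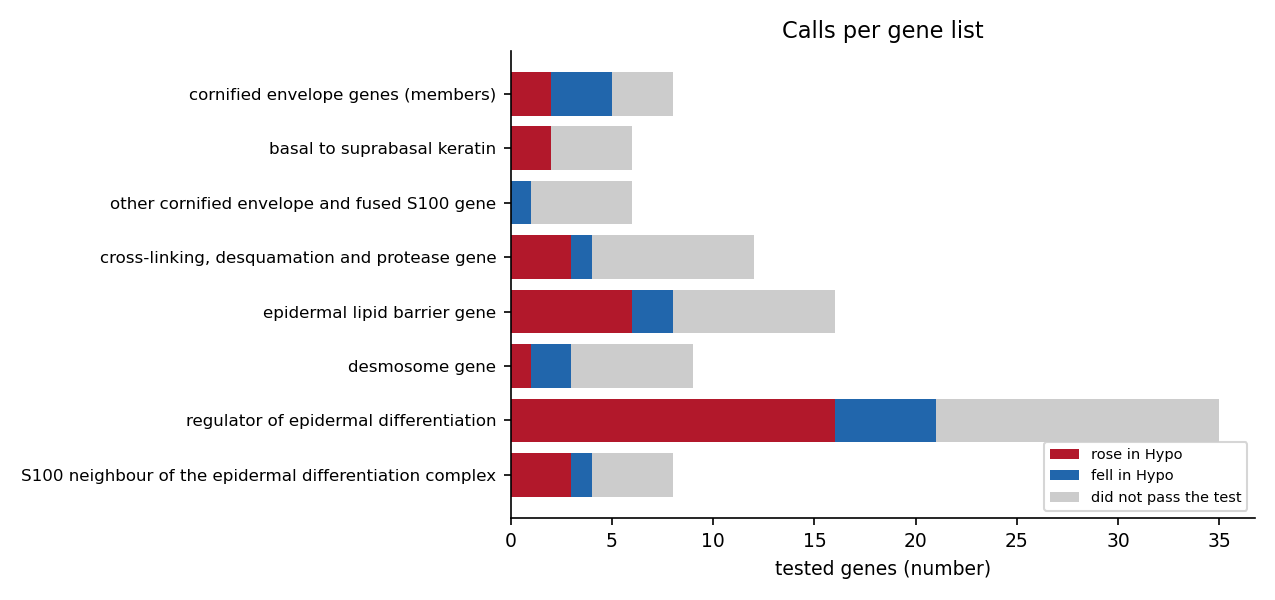
Number of tested genes (horizontal axis) that rose in Hypo, fell in Hypo or did not pass the test, for the cornified envelope genes and 7 lists of related genes. The regulators have 16 rises and 5 falls among 35 genes, whereas the cornified envelope genes have 2 rises and 3 falls among 8. Among all tested genes 14.1% rose and 8.75% fell.

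Markers of other cell types were measured beside these genes. Of 3 measured markers of basal or squamous epithelium, Trp63 rose and Krt14 and Krt10 were not called (Krt5 and Krt1 were not analysed here), and their summed level was 3849 to 4803 normalized counts in Hypo and 3915 to 5847 in Ctrl. Fibroblast markers summed to 2937 to 3617 in Hypo and 2212 to 2589 in Ctrl (4 of 6 markers measured, 2 of 3 tested rose). Endothelial markers summed to 103 to 127 in Hypo and 23.5 to 50.4 in Ctrl (1 of 2 tested rose). Immune markers summed to 42.3 to 64.6 in Hypo and 24.6 to 37.4 in Ctrl (1 of 2 tested rose). Of all tested genes, 14.1% rose and 8.75% fell. Col1a1 and Col1a2 rose, and Pdgfra was not called (2276 in Hypo, 2062 in Ctrl). Cdh5 rose (78.2 in Hypo, 16.2 in Ctrl), and Pecam1 was not called (19.9 in Hypo, 16.1 in Ctrl). Ptprc rose (35.5 in Hypo, 9.26 in Ctrl) and passed the minimum through its Hypo level. Lyz2 was not called (15.6 in Hypo, 21.0 in Ctrl). The part of these markers in the values above was not tested. In bulk samples a change in the number of expressing cells and a change of RNA per cell cannot be told apart.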

How the data were processed

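Poly(A) RNA of 8 libraries (Hypo replicates 2 to 5, Ctrl replicates 1 to 4, from the sample titles) was sequenced as stranded paired-end libraries. Per the study's methods and the submitters' processing notes, reads were trimmed, aligned with STAR to GRCm38 and counted per gene, and DESeq2 was run; no source used here states if strand was used in counting. The authors deposited normalized counts per library, a signal equal to reads divided by a DESeq2 size factor (23606 genes), and variance-stabilized values on a log2-like scale (27336 genes, 23215 in both). All normalized counts were whole multiples of 1 read within 0.01, so whole reads were recovered. The deposited columns of the authors' comparison (mean, log2 fold change, its error, Wald statistic and p-values) were not used.

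Genes in both tables with a mean of at least 10 normalized counts were tested with limma 3.58.1 (moderated statistics with a mean-variance trend, two-sided, adjusted by Benjamini-Hochberg) in R 4.3.3. The study's count test was not the main test, since the deposited values are not raw counts. Alternatives were no filter, a minimum of 50, each library left out, the replicate number as a block, other scalings, array weights, limma with no trend, log values with pseudocounts of 1 and 5, and edgeR 4.0.16 and DESeq2 1.42.0 on recovered reads. The edgeR fit without a filter was added after seeing the data. The script was tested on simulated data. Each level is a mean ± SD, and a fold divides the group means. GENCODE for GRCm38 gave the positions, and promoters are from RefSeq on GRCm38.p6.

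Every gene of the set is accounted for. Those with a mean of at least 10 are given by library, and rarer ones by range, or by value where their mean reached 3 or the groups did not overlap; reads of the others, which that rule does not name, are given as totals. Of each other list up to 4 genes with the smallest p were open to naming, with the regulators Trp63, Klf4, Grhl3, Ovol1 and Zfp750; a further gene open to naming is not reported here. Neighbours within 100 kb were chosen after their values were seen. The genes and lists were chosen with earlier results of these data known. No source used here states that the libraries of a group are separate cultures; p-values then measure only the spread among these libraries, possibly technical. Read totals are sums over libraries and do not show the spread among them. Counting error is the least error of such a total, because reads are not independent molecules.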

Additional observations from a re-analysis of the deposited data

Results flagged for a closer look

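Of 16 groups of 4 libraries (8 tested genes in Hypo and in Ctrl), 5 had a library whose gap to its nearest neighbour passed the critical value of a Dixon test at 95%, where chance gives about 1 in 20. Ctrl replicate 3 was that library 3 times, as the highest Ctrl library for Cdsn (427 normalized counts) and the lowest for Lce1f (15.4) and Sfn (2497). Ctrl replicate 1 was the lowest Ctrl library for Tgm1 (7.17), and Hypo replicate 2 was the highest Hypo library for Evpl (473).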

How the results depend on the processing

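Tgm1, Lce1g and Ppl kept their direction and their call in every alternative that tested them (Tgm1 and Lce1f were not tested at a minimum of 50). The cause was not tested for any change given here. Calls of rises among the cornified envelope genes numbered 1 without a filter, 1 at a minimum of 50, 1 with the replicate block and 1 after quantile normalization, against 2 in the fit as reported, and 1 to 3 with each library left out; falls numbered 2 to 4. Sbsn was not called without a filter (adjusted p = 0.054), with the replicate block (0.098) or after quantile normalization (0.16), nor Lce1f without a filter (0.059) or with the replicate block (0.11). Of all tested genes, 1350 rose at a minimum of 50, 1283 rose and 322 fell with the replicate block, 2673 fell with array weights, and 852 to 2095 fell with each library left out, the most without Ctrl replicate 3. Quantile normalization gave 1818 rises and 1962 falls, against 2219 and 1378 as reported. Among the related lists, falls of lipid barrier genes numbered 0 to 4, of desmosome genes 0 to 3 and of S100 neighbours 0 to 3 over all alternatives, and 3 regulators fell with the replicate block, against 5 as reported. Genes that were not called changed sign. Cdsn was -0.038 with the replicate block, -0.10 after quantile normalization, -0.25 by edgeR, -0.28 by edgeR without a filter and -0.090 to 0.33 with each library left out. Sfn was 0.029 after quantile normalization and -0.20 to 0.10 with each library left out, and Evpl -0.059 to 0.012. DESeq2 gave no adjusted p for Cdsn. Hypo and Ctrl share the numbers 2, 3 and 4. The deviations of same-numbered libraries correlated at -0.11, -0.21 and -0.17, and those of other pairs at -0.59 to 0.52. No shared deviation of same-numbered libraries was seen, but these values cannot show whether such libraries were handled together. The main fit did not pair them. Genes with few reads, including all Sprr genes, are limited by depth.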
